A study of Rattus norvegicus with 113 samples.

Results

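C3ar1, C5ar1, Serping1, Cr1l, Cd55, C4bpb and Cfd are the 7 complement receptors and regulators described here, among 16691 named genes on the arrays. They were chosen by name, as all probes whose transcript accession matched these rat symbols in RefSeq, and all 7 had at least 1 probe. C3ar1 and C5ar1 encode the receptors for the complement peptides C3a and C5a. Serping1 encodes C1 inhibitor, the plasma protein that blocks the proteases of the classical pathway. Cr1l (also called Crry) and Cd55 (decay-accelerating factor) encode membrane proteins that limit C3 convertases on a cell's own surface. C4bpb encodes the beta chain of C4b-binding protein, a soluble inhibitor of the classical convertase, and Cfd encodes factor D (adipsin), the protease that starts the alternative convertase.

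Complement is a cascade of plasma proteins in which proteases cut C3 and C5, tag surfaces with fragments and release small peptides. In brain, microglia and blood-derived myeloid cells carry the peptide receptors, while regulators on neurons, glia and vessels limit attack on healthy cells. After brain injury the cascade is known as part of the inflammatory response.

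RNA came from male adult Sprague-Dawley rats in 3 conditions. TBI rats had a parasagittal fluid-percussion injury, in which a pulse of fluid strikes the intact dura. Sham rats had the same anaesthesia and surgery without the pulse, and naive rats were neither anaesthetised nor handled. Sham and TBI rats received isoflurane as the anaesthetic and bupivacaine at the wound. Hippocampus and cortex near the injury were taken 24 hr, 2 weeks, 3 months, 6 months or 1 year later, and the ages at sampling therefore differ between intervals. Each group had 4 rats and 1 array per tissue sample, except that the hippocampus at 24 hr had 2 sham rats, 3 TBI rats and no naive rats. In the study's design both tissues of an interval came from the same rats. The 113 arrays were of 2 designs: 17 arrays (hippocampus at 24 hr and 3 months) held 30367 probes and the other 96 held 45598. The tissue was bulk, so fewer cells of a type and less RNA per cell cannot be told apart.

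A level is the log2 signal of a probe minus the median of its array, so it is comparable between arrays of 1 design for 1 probe, and not between probes. C3ar1 was read from different probes on the 2 designs. Between 41.3% and 93.0% of probes per array were well above background. In 108 arrays the 75th percentile of signal lay 3.48 to 4.01 above the median on the log2 scale. The other 5 stood apart: cortex sham 2 weeks replicate 3 (0.80), cortex naive 2 weeks replicates 1 (3.27) and 4 (2.20), hippocampus naive 6 months replicate 2 (3.05) and cortex sham 3 months replicate 1 (3.31). The tissue labels of naive arrays were checked with 4 cortical genes (Cux2, Rorb, Tbr1 and Lamp5). Their mean level was 1.71 to 3.04 in naive cortex and 0.15 to 1.58 in naive hippocampus on the same design. Among sham and TBI arrays of that design the tissues overlapped, so the check does not separate those. Cortex went down to 0.63 (sham, 2 weeks) and 1.25 (sham, 3 months), and hippocampus up to 2.07 (TBI, 6 months). Every group lay on 1 slide. TBI and sham shared a slide in the hippocampus at 2 weeks, 3 months and 1 year and in the cortex at 3 months and 1 year. In the other 5 comparisons slide and injury cannot be told apart.

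Promoters are shown for C3ar1 and Cr1l, because both genes rose in the hippocampus at 24 hr and are the risen members with an entry in the sequence table. C5ar1 and Serping1 have no entry. Each run is the 250 bases before the annotated start in RefSeq on GRCr8, 5′ to 3′ on the gene's strand, with motif matches in capitals. The C3ar1 bases are chr4:157756531-157756780 and the Cr1l bases are chr13:109188870-109189119, both on the minus strand.
C3ar1: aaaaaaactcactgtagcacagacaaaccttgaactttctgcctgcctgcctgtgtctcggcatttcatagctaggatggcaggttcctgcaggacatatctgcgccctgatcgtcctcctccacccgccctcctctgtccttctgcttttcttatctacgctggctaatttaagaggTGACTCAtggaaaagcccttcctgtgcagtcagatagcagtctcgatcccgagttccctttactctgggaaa
Cr1l: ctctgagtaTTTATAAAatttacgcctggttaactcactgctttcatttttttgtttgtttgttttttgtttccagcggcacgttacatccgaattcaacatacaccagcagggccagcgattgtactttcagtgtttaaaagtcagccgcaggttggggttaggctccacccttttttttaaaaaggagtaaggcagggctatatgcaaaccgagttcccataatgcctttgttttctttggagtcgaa
The capitals in C3ar1 mark an AP-1 site, TGACTCA, at -72 to -66 from the start. The same letters occur on either strand in 4.05% of 33469 rat promoter windows of the same 250 bases. The capitals in Cr1l mark TATAAA on both strands in overlap, at -239 to -234 and -241 to -236, far upstream of the usual place of a TATA box, and 12.9% of windows hold those letters. Also searched on both strands were the STAT site TTCNNNGAA (7.67% of windows), the PU.1 and ETS core GAGGAAG (10.2%), the interferon response core (3.41%), the cAMP response element TGACGTCA (1.59%) and the NF-kappaB consensus (6.33%), which were not among the letters of these windows. C4bpb held a STAT site at -156 to -148 and GAGGAAG at -182 to -176, and Cfd and Cd55 held no match. A match says only that the letters are present.

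C3ar1, C5ar1, Serping1 and Cr1l rose in the injured hippocampus at 24 hr, and C3ar1 and Serping1 rose there at 2 weeks. A call means a Benjamini-Hochberg adjusted p under 0.05 in limma over all probes tested in that comparison, and measures only the spread between these rats. At 24 hr in the hippocampus 4 of 7 members were called, all higher after TBI, where 13.5% of all tested probes were called. At 2 weeks 2 of 7 were called against a background of 1.84%. No member passed at 3 months (0 of 6 tested, background 0.0134%), 6 months (0 of 7, 0.0134%) or 1 year (0 of 7, 0%). In the cortex no member passed at 24 hr (0.286% of probes called), 2 weeks (0.00848%), 3 months (0%), 6 months (0.0805%) or 1 year (0%). Without the 5 arrays that stand apart, 4 of 7 members were called in the cortex at 2 weeks, where 8.45% of probes then were. At an unadjusted p under 0.05 in limma, 4 members passed in the cortex at 24 hr (background 20.9%) and 4 at 2 weeks (4.04%). By the same measure 1 member passed in the cortex at 3 months (4.15%), 2 at 6 months (10.1%) and 0 at 1 year (1507 of 25221 probes). In the hippocampus the numbers were 6 at 24 hr (5203 of 16737 probes) and 6 at 2 weeks (6114 of 25106). Later they were 1 at 3 months (4.96%), 1 at 6 months (2.87%) and 1 at 1 year (15.6%). By the study's own thresholds (1.4-fold or more, with p before adjustment under 0.05), 6 members passed in the hippocampus at 24 hr (4158 of 16737 probes). There 5 passed at 2 weeks (4.51% of all probes), 1 at 3 months (1.67%) and 1 at 6 months (2.53%). The same thresholds passed 3 members in the 24 hr cortex (10.3%) and 4 in the 2-week cortex (4.04%), with 1 each in the 3-month (2.95%) and 6-month cortex (4.1%).

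**Figure D1:**
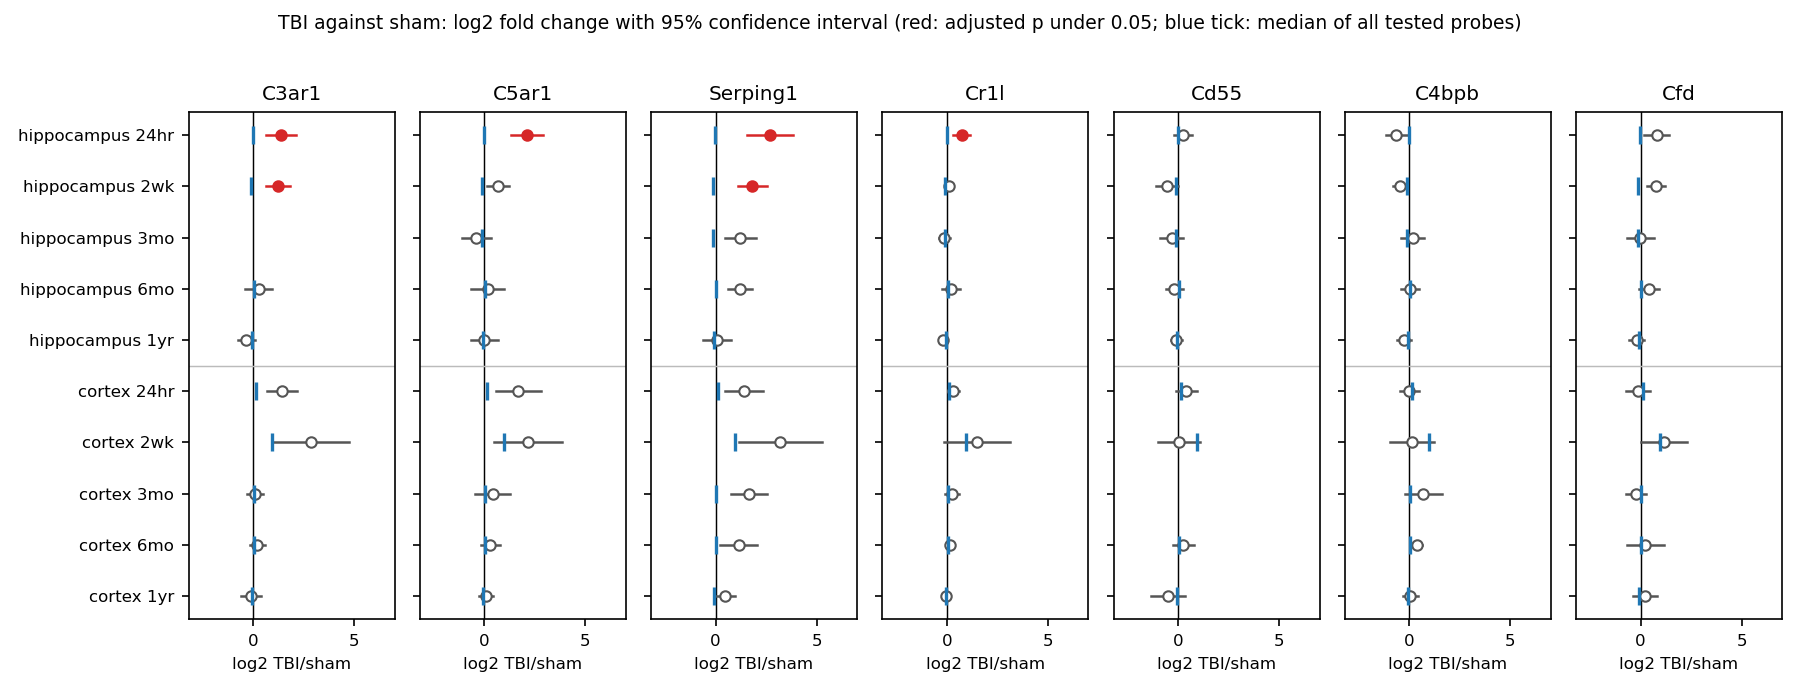
Fold changes of the 7 members between TBI and sham rats. Each panel is 1 gene, rows are tissues and intervals, the x axis is the log2 fold change, horizontal bars are 95% confidence intervals, red points passed an adjusted p under 0.05 in limma and blue ticks are the median over all probes tested. Red points stand in the hippocampus at 24 hr for 4 genes and at 2 weeks for 2, and Serping1 lies right of 0 in all 10 rows.

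C5ar1 is the receptor through which C5a draws neutrophils and monocytes. In the hippocampus at 24 hr its level was 0.69 and 1.26 in the sham rats and 3.70, 2.83 and 2.76 in the TBI rats. The groups did not overlap, and TBI replicate 1 was the highest. TBI was 4.35-fold above sham (95% confidence interval 2.49 to 7.59), a log2 difference of 2.12 ± 0.33 (SE, adjusted p = 0.0138 in limma). At 2 weeks the sham rats had 0.59, 0.81, 0.85 and 1.32 and the TBI rats 1.61, 0.80, 1.84 and 2.04. TBI replicate 2 lay within the sham range, and the 1.61-fold difference did not pass (adjusted p = 0.131). Later differences in the hippocampus were 0.759-fold at 3 months, 1.11-fold at 6 months and 0.998-fold at 1 year, each with an interval that held 1.

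C3ar1, the C3a receptor of microglia and macrophages, was read at 24 hr in the hippocampus from the dimmer probe of the smaller design. Its level was -0.76 and -0.90 in the sham rats and 0.91, 0.76 and -0.08 in the TBI rats. All TBI arrays lay above both sham arrays, with TBI replicate 3 the nearest to them. The difference was 2.57-fold (1.54 to 4.28, log2 1.36 ± 0.30 SE, adjusted p = 0.0364). At 2 weeks, on the larger design, sham rats had 0.17, 0.66, 0.66 and 0.98 and TBI rats 1.75, 1.03, 2.22 and 2.40. No TBI array fell in the sham range, although TBI replicate 2 was just above it. C3ar1 was 2.35-fold higher after TBI (1.56 to 3.53, log2 1.23 ± 0.27 SE, adjusted p = 0.046). At 3 months the probe was not well above background in most arrays and was not tested. The difference was 1.2-fold (0.764 to 1.89) at 6 months and 0.785-fold (0.586 to 1.05) at 1 year, both with overlapping groups.

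At 24 hr in the hippocampus, sham and TBI were on different slides. Leaving out sham replicate 1 ended all 4 calls (adjusted p = 0.0802 for C5ar1, 0.127 for C3ar1, 0.0632 for Serping1 and 0.196 for Cr1l). With 2 sham arrays, leaving out 1 leaves a single sham array that is assumed to vary like the TBI arrays, which alone then give the spread. Leaving out sham replicate 2, TBI replicate 1 or TBI replicate 2 ended those of C3ar1 (adjusted p 0.083 to 0.166) and Cr1l (0.11 to 0.122), and leaving out TBI replicate 1 also ended that of Serping1 (0.051). At 2 weeks the calls of C3ar1 and Serping1 were lost on leaving out any 1 of the 4 sham arrays or TBI replicate 1, 3 or 4 (adjusted p 0.0651 to 0.146 and 0.0516 to 0.11). With only the sham and TBI arrays in the fit, neither passed at 2 weeks (adjusted p = 0.0785 for C3ar1 and 0.0658 for Serping1). Without TBI replicate 2 there were 4 calls, with C5ar1 (adjusted p = 0.0233) and Cfd (0.0413) added. The folds stayed on the same side throughout, at 3.53 to 5.30 for C5ar1 and 2.25 to 3.17 for C3ar1 at 24 hr, and 2.07 to 2.84 for C3ar1 at 2 weeks.

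At 24 hr in the cortex both receptors were higher in TBI than in sham rats by values that did not pass. C3ar1 was 0.37, 1.59, 0.36 and 1.62 in the sham rats and 2.61, 1.94, 1.91 and 3.16 in the TBI rats. The groups did not overlap, but sham replicates 2 and 4 were near the lowest TBI arrays. The 2.68-fold difference (1.59 to 4.52) had an adjusted p of 0.0763. C5ar1 was 0.83, 2.36, 1.32 and 2.87 in the sham rats and 4.28, 2.98, 2.34 and 4.5 in the TBI rats. The same sham replicates 2 and 4 reached the TBI range, and the 3.21-fold difference (1.49 to 6.91) had an adjusted p of 0.105. Without TBI replicate 3, both passed (adjusted p = 0.0437 for C3ar1 and 0.0433 for C5ar1). Against the naive rats, which had C3ar1 levels of 0.46 to 0.95 and C5ar1 levels of 0.90 to 1.52, both rose after TBI. C3ar1 was 3.19-fold (adjusted p = 0.0114) and C5ar1 5.35-fold (adjusted p = 0.0118) above naive.

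In the cortex at 2 weeks the outcome turned on sham replicate 3, the array farthest from the others. C3ar1 was 2.61, 2.64, 2.28 and 2.79 in the TBI rats, 1.01, 0.97 and about 0 (-0.0014) in 3 sham rats, and -3.17 in sham replicate 3. C5ar1 was 2.59, 2.18, 2.23 and 3.22 in the TBI rats, 1.26, 0.97 and 1.59 in the same 3 sham rats, and -2.27 in sham replicate 3. All TBI arrays lay above all sham arrays for both genes, with or without that replicate. With all arrays, the median difference over all tested probes was 0.95 on the log2 scale. Beside that shift the differences were 2.87 for C3ar1 and 2.17 for C5ar1 (adjusted p = 0.504 for each). Without the arrays that stand apart, the median over all probes was 0.01, C3ar1 was 3.78-fold above sham (2.54 to 5.62, adjusted p = 0.00433) and C5ar1 2.43-fold (1.63 to 3.63, adjusted p = 0.0194). Leaving out sham replicate 3 alone gave a call for C3ar1 (adjusted p = 0.00095) and not for C5ar1. C3ar1 was well above background on 1 of the 4 sham arrays, not replicate 3, and on all 4 TBI arrays. It was therefore tested through the TBI group, and its 3.78-fold difference rests mostly on dim sham signals.

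At later intervals in the cortex the receptors of TBI and sham rats overlapped. C3ar1 differed 1.05-fold (0.807 to 1.38) at 3 months, 1.16-fold (0.898 to 1.49) at 6 months and 0.933-fold (0.667 to 1.31) at 1 year. C5ar1 differed 1.32-fold (0.732 to 2.39), 1.22-fold (0.892 to 1.68) and 1.05-fold (0.82 to 1.33) at the same intervals. The 3-month difference of C5ar1 changed sign without the sham array that stands apart, from 0.40 to -0.06 on the log2 scale. The dim second probe of C3ar1 on the larger design gave log2 differences of 1.1 in the cortex at 24 hr (adjusted p = 0.38) and 1.21 at 2 weeks (adjusted p = 0.504), in the same direction.

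**Figure D2:**
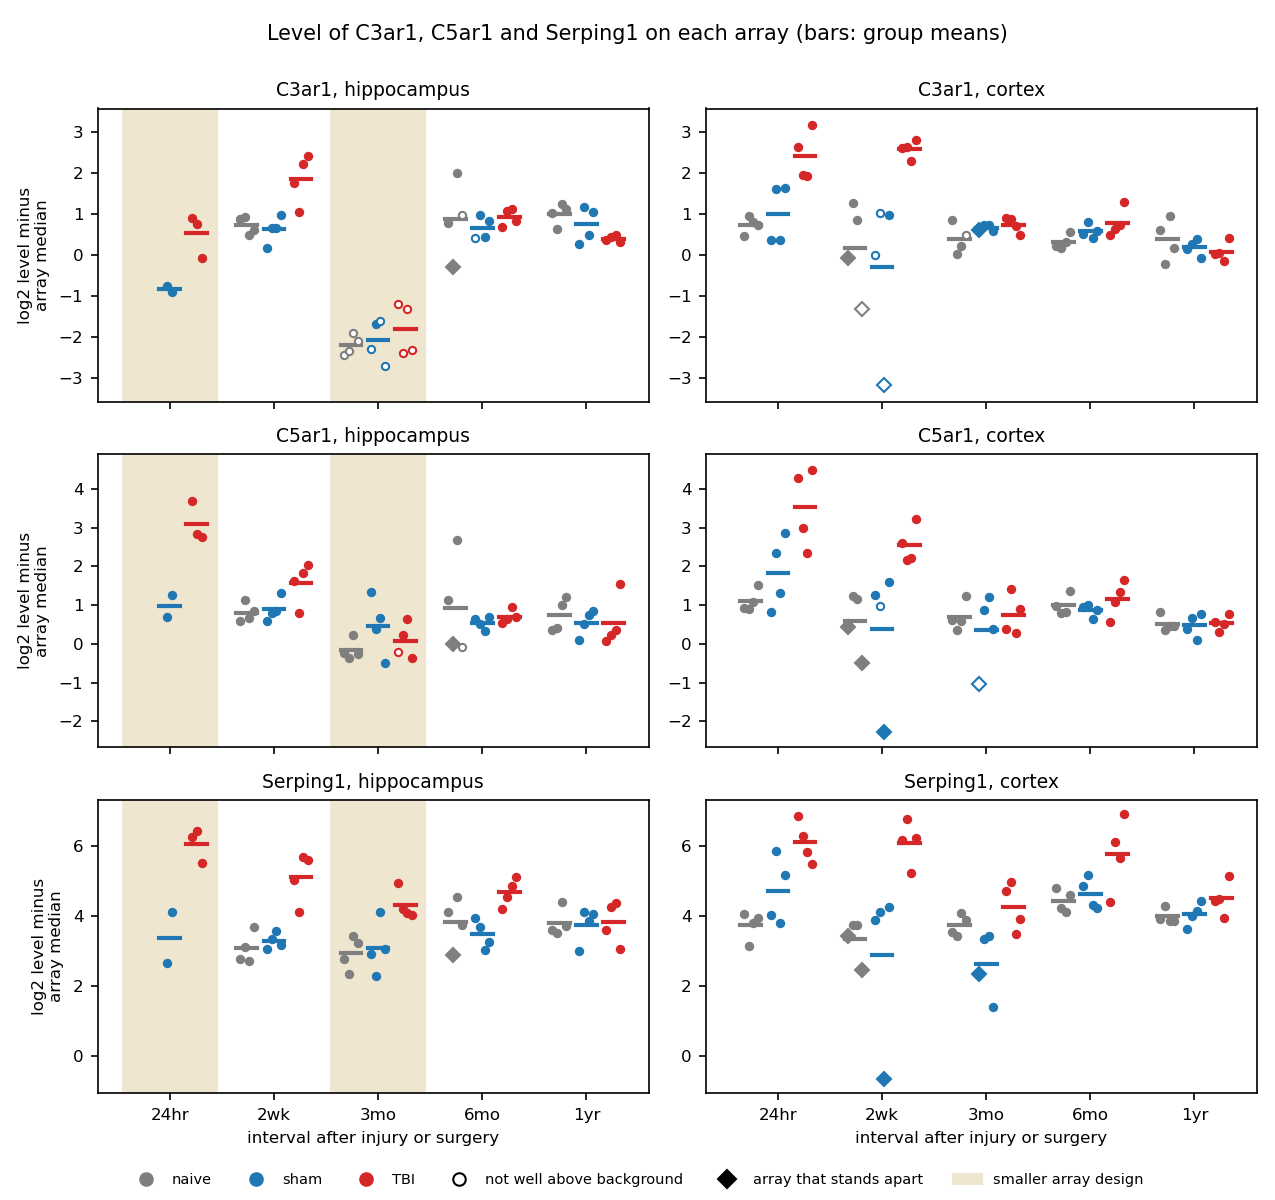
Levels of C3ar1, C5ar1 and Serping1 on every array, with hippocampus on the left and cortex on the right. The y axis is the log2 level minus the array median, the x axis the interval, points are single arrays coloured by condition, bars are group means, open points were not well above background, diamonds are the 5 arrays that stand apart and shading marks the smaller design. Serping1 in the hippocampus at 24 hr lies between 5.53 and 6.44 in the TBI rats and at 2.67 and 4.11 in the sham rats.

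Serping1 had the largest differences of the 7 members at 24 hr and 2 weeks in the hippocampus. At 24 hr the sham rats had 2.67 and 4.11 and the TBI rats 6.25, 6.44 and 5.53. The sham rats differed from each other by more than the TBI rats did, and the groups did not overlap. TBI was 6.44-fold above sham (2.96 to 14.0, log2 2.69 ± 0.46 SE, adjusted p = 0.018 in limma), and between 3.91-fold and 10.6-fold when single arrays were left out. At 2 weeks the sham rats had 3.06, 3.33, 3.57 and 3.19 and the TBI rats 5.02, 4.11, 5.68 and 5.61. Every TBI array was above every sham array, with TBI replicate 2 the lowest. The difference was 3.52-fold (2.15 to 5.77, log2 1.82 ± 0.32 SE, adjusted p = 0.0302).

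At 3 months in the hippocampus Serping1 was 2.92, 2.29, 4.11 and 3.07 in sham rats and 4.94, 4.20, 4.10 and 4.04 in TBI rats. Sham replicate 3 reached the TBI range. The 2.33-fold difference (1.38 to 3.94) had an unadjusted p of 0.00404 in limma and an adjusted p of 0.882. At 6 months the sham rats had 3.95, 3.69, 3.02 and 3.25 and the TBI rats 4.19, 4.54, 4.87 and 5.12. The groups did not overlap, and the 2.30-fold difference (1.51 to 3.52) had an unadjusted p of 0.000494 and an adjusted p of 0.522. The naive rats of that interval had 2.89 to 4.55 and overlapped the TBI rats. At 1 year the difference was 1.05-fold (0.643 to 1.71).

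Cortical Serping1 at 24 hr was 4.03, 5.86, 3.81 and 5.17 in sham rats and 6.86, 6.28, 5.82 and 5.50 in TBI rats. Sham replicates 2 and 4 were again the high ones, and replicate 2 lay inside the TBI range. The 2.64-fold difference (1.37 to 5.07) did not pass (adjusted p = 0.11). Against naive rats at 3.14 to 4.07, Serping1 rose 5.19-fold (2.70 to 9.998, adjusted p = 0.00867). At 2 weeks the TBI rats had 6.16, 6.77, 5.23 and 6.23 and the sham rats 3.88, 4.11, -0.66 and 4.25, with -0.66 in replicate 3. With all arrays the log2 difference was 3.20 (adjusted p = 0.471). Without the arrays that stand apart it was 2.02 ± 0.30 (SE), or 4.05-fold (2.52 to 6.51, adjusted p = 0.00685), and without sham replicate 3 alone it also passed (adjusted p = 0.00019).

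The later cortex values of Serping1 stayed above sham without a call. At 3 months the sham rats had 2.34, 3.36, 3.44 and 1.39 and the TBI rats 4.72, 4.97, 3.48 and 3.92. The groups met without overlap, and sham replicate 1, with 2.34, is 1 of the arrays that stand apart. The difference was 3.12-fold (1.69 to 5.75, unadjusted p = 0.00128 in limma, adjusted p = 0.916), and 2.92-fold without that array (adjusted p = 0.342). The naive rats of that interval had 3.43 to 4.09 and overlapped the TBI rats. The sham mean of 2.63 was the lowest of the 15 cortex groups, against 3.73 in naive and 4.27 in TBI rats. At 6 months TBI rats spread from 4.40 to 6.92 against 4.22 to 5.18 in sham rats, a 2.19-fold difference (1.14 to 4.19, adjusted p = 0.405). Naive rats at 6 months had 4.13 to 4.80 and also overlapped the TBI rats. In those 6-month TBI arrays the mean level of the 9 choroid plexus markers was 1.07 to 3.45, against -0.36 to 0.52 in sham, and the part of choroid plexus in the Serping1 values was not tested. At 1 year the difference was 1.38-fold (0.965 to 1.97).

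**Figure D3:**
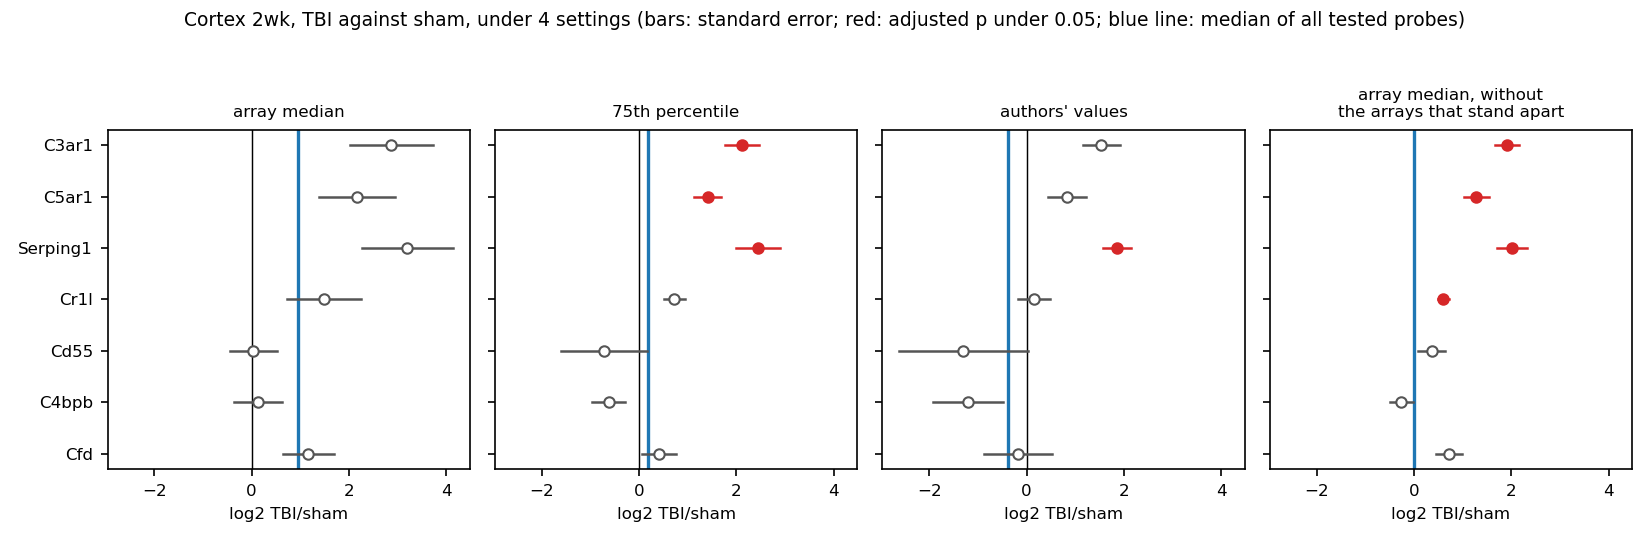
TBI against sham in the cortex at 2 weeks under 4 settings: array median, 75th percentile, the authors' values, and array median without the arrays that stand apart. Points are log2 fold changes of the 7 members with standard errors, red marks an adjusted p under 0.05 in limma and the blue line is the median of all tested probes. C3ar1, C5ar1 and Serping1 lie right of 0 in every panel, and the count of red points is 0, 3, 1 and 4 in that order.

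Among the membrane regulators, Cr1l, the rodent inhibitor of C3 convertases, changed by less than the receptors. In the hippocampus at 24 hr it was 2.90 and 3.16 in sham rats and 3.94, 3.79 and 3.57 in TBI rats. The groups did not overlap. The difference was 1.67-fold (1.25 to 2.23, log2 0.74 ± 0.17 SE, adjusted p = 0.0418 in limma). At 2 weeks sham rats had 4.56 to 4.80 and TBI rats 4.68 to 4.94, a 1.08-fold difference (0.952 to 1.21, adjusted p = 0.44). Sham rats had cortical Cr1l levels of 4.40, 4.70, 4.45 and 4.63 at 24 hr and TBI rats 5.15, 4.95, 4.6 and 4.77, with overlap, and the 1.25-fold difference did not pass (adjusted p = 0.173). At 2 weeks TBI rats had 5.0, 5.05, 4.82 and 4.66. The sham rats had 4.27, 4.29 and 4.28, and 0.75 in replicate 3. Cr1l was 1.52-fold higher (1.28 to 1.80, adjusted p = 0.014) without the arrays that stand apart and was not called with all arrays (adjusted p = 0.504). The 2 naive arrays kept in that fit had 4.63 and 4.68, above the sham rats kept and overlapping the TBI rats. The Cr1l groups were narrow in most arrays, with all arrays between 4.25 and 4.52 in the cortex at 1 year.

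Cd55, the decay-accelerating factor that takes C3 and C5 convertases apart, did not pass in any comparison of TBI with sham. In the hippocampus at 2 weeks sham rats had 1.44, 1.57, 1.77 and 1.68 and TBI rats 1.37, 1.32, 0.62 and 0.97. All TBI arrays were below all sham arrays, and the difference was 0.685-fold (0.472 to 0.995, adjusted p = 0.2). At 24 hr the difference was 1.2-fold (0.88 to 1.63), with overlap. At 24 hr in the cortex naive rats had -0.88, -1.41, -0.11 and -0.87, sham rats -0.16, 0.04, -0.42 and -0.17, and TBI rats 0.16, 0.59, 0.0042 and 0.18. TBI rats were above every naive rat and Cd55 was 2.07-fold above naive (1.45 to 2.94, adjusted p = 0.0143), while the 1.33-fold difference from sham did not pass (adjusted p = 0.343). Only 2 of the 4 naive arrays were well above background, against all 4 TBI arrays, so the test against naive was made through the TBI group. Naive cortex at 3 months (mean 0.46) and 6 months (0.27), on other slides, lay above the TBI mean at 24 hr (0.23). The second brightest of the 5 Cd55 probes gave a log2 difference of -0.52 against sham there, opposite to the 0.41 of the main probe, and neither was called.

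C4bpb, the beta chain of C4b-binding protein, was lower after TBI in both early hippocampal comparisons by values that did not pass. At 24 hr sham rats had 1.09 and 1.12 and TBI rats 0.71, 0.55 and 0.08. At 2 weeks sham rats had 0.99, 1.39, 1.35 and 1.09 and TBI rats 0.81, 0.73, 0.48 and 0.91. The groups did not overlap at either interval, and the differences were 0.635-fold (0.445 to 0.906) and 0.72-fold (0.577 to 0.899), each with an adjusted p of 0.0939. The naive rats at 2 weeks had 0.72, 0.89, 0.29 and 0.45, which overlapped the TBI rats and lay below every sham rat. Sham was 1.53-fold above naive (1.23 to 1.91, adjusted p = 0.0247), in a comparison where 8.73% of probes were called. This call was lost with only the groups compared (adjusted p = 0.0534), without the filter (0.0941) and on leaving out naive replicate 3 or 4 or sham replicate 2 or 3 (0.0623 to 0.0744). In the cortex at 6 months the order was the reverse, with sham rats at 0.37, 0.57, 0.32 and 0.25, below TBI rats at 0.64 to 0.84 and naive rats at 0.87 to 1.25. Neither the 1.29-fold difference of TBI from sham (adjusted p = 0.283) nor the 0.652-fold difference of sham from naive (adjusted p = 0.0827) passed.

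Cfd, the factor D protease that adipocytes secrete in quantity, also had early differences short of the threshold. In the hippocampus at 24 hr sham rats had 1.12 and 1.07 and TBI rats 2.34, 1.46 and 1.86. At 2 weeks sham rats had 1.11, 0.91, 1.6 and 1.11 and TBI rats 1.86, 1.58, 2.21 and 2.15. The groups were apart at 24 hr and met at 2 weeks, where sham replicate 3 reached TBI replicate 2. The differences were 1.73-fold (1.12 to 2.68, adjusted p = 0.0963) and 1.70-fold (1.26 to 2.31, adjusted p = 0.0656). The naive rats at 2 weeks had 1.55 to 2.29, the range of the TBI rats, and TBI differed from naive 1.1-fold (0.809 to 1.49). Cortical Cfd at 24 hr differed 0.912-fold from sham (0.606 to 1.37). At 2 weeks TBI rats had 3.21 to 4.30 and sham rats 1.23 to 3.33, a difference that did not pass with or without the arrays that stand apart (adjusted p = 0.504 and 0.142). Under the authors' values the log2 difference there was -0.17, and the small differences of Cd55 and C4bpb changed sign under other scalings, all without a call.

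**Figure D4:**
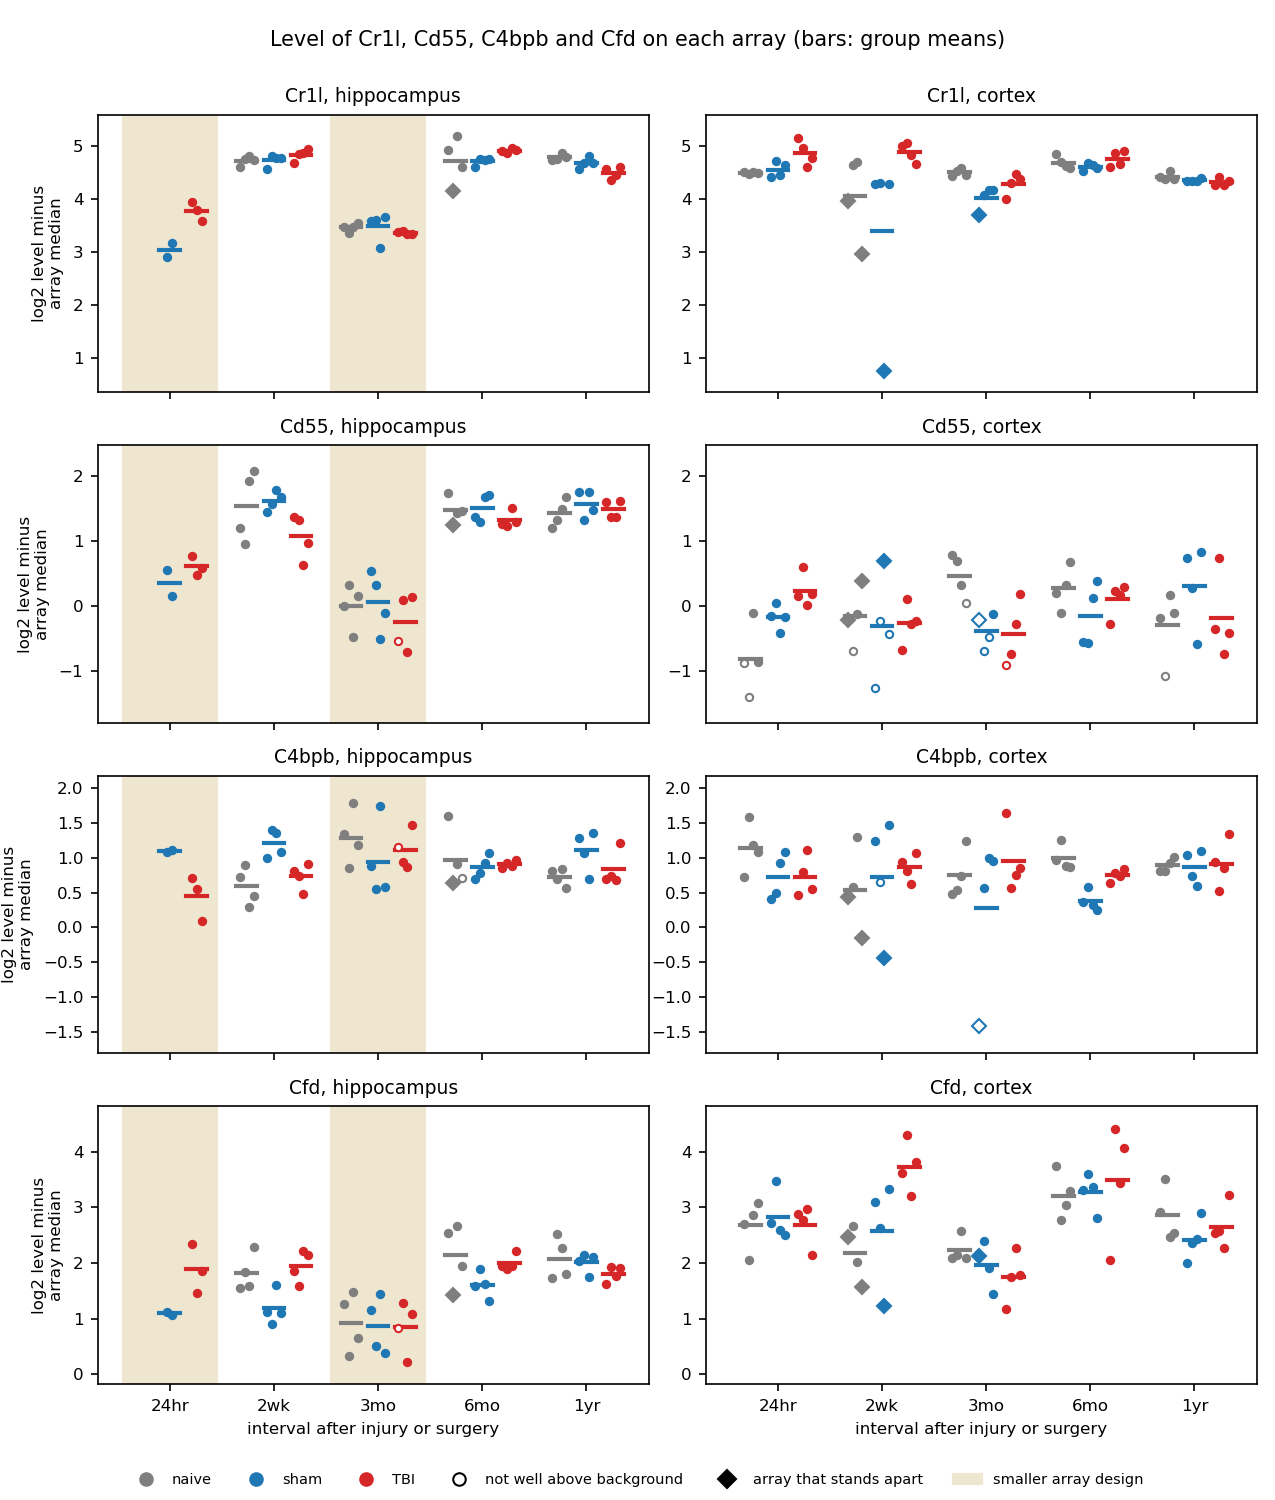
Levels of Cr1l, Cd55, C4bpb and Cfd on every array, with hippocampus on the left and cortex on the right, drawn as in the plot of the receptors and Serping1. Cr1l of the sham rats in the cortex at 2 weeks lies between 4.27 and 4.29 except for the diamond at 0.75, and Cd55 lies higher in naive hippocampus than in naive cortex at 2 weeks, 6 months and 1 year.

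The 15 cortex groups, all on the larger design, can be put in order of their mean level (± SD, n = 4). C3ar1 was highest in TBI at 2 weeks (2.58 ± 0.22) and 24 hr (2.41 ± 0.60), which overlapped, followed by sham at 24 hr (0.99 ± 0.72). Without the arrays that stand apart naive rats at 2 weeks followed instead (1.04 ± 0.29, n = 2), and the places given for the other members stayed the same. C5ar1 was highest in TBI at 24 hr (3.53 ± 1.03), then TBI at 2 weeks (2.56 ± 0.48) and sham at 24 hr (1.84 ± 0.93), each overlapping the next. The first places of Serping1 were TBI at 24 hr (6.11 ± 0.59), 2 weeks (6.10 ± 0.64) and 6 months (5.77 ± 1.05), with overlap. Those of Cr1l were TBI at 2 weeks (4.88 ± 0.18), 24 hr (4.87 ± 0.23) and 6 months (4.76 ± 0.15), also with overlap, and the naive rats at 6 months overlapped them too. Cfd was also highest in TBI at 2 weeks (3.73 ± 0.45) and 6 months (3.5 ± 1.04), but these overlapped sham and naive rats at 6 months, and it was lowest in TBI at 3 months (1.74 ± 0.44). Cd55 was highest in naive rats at 3 months (0.46 ± 0.34) and lowest in naive rats at 24 hr (-0.82 ± 0.53), and C4bpb was highest in naive rats at 24 hr (1.14 ± 0.35). The groups lay on different slides, so differences between intervals and slides cannot be told apart.

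Comparison with naive rats, the untouched baseline, asked what surgery without injury did. Over 9 comparisons 1 of 58 member tests of sham against naive was called, C4bpb in the hippocampus at 2 weeks, where 4.65% of all probe tests were called, and 9 had an unadjusted p under 0.05, as did 16% of all probe tests. For TBI against naive, 6 of 61 were called, against 5.17% of probe tests. By fold change and unadjusted p, 7 tests of sham against naive passed (7.13% of all probe tests) and 16 of TBI against naive (8.34%). The 6 calls of TBI against naive were C3ar1 (2.18-fold, adjusted p = 0.0208) and Serping1 (4.06-fold, adjusted p = 0.00426) in the hippocampus at 2 weeks, where 12.9% of probes were called, and C3ar1, C5ar1, Serping1 and Cd55 in the cortex at 24 hr, where 17.3% were. The C3ar1 call in the hippocampus was lost on leaving out naive replicate 3 or TBI replicate 3 or 4 (adjusted p 0.052 to 0.0667). In the 6 calls, and in that of C4bpb, the groups compared lay on different slides, so slide and condition cannot be told apart. These comparisons share their TBI arrays with those against sham. Cd55 in the cortex at 24 hr was well above background on only 2 of the 4 naive arrays. The cortical sham rats at 24 hr lay between naive and TBI rats in mean level for C3ar1, C5ar1, Serping1, Cr1l and Cd55.

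Whether the effect of TBI differed between tissues or intervals was tested as an interaction. The tests between tissues took the arrays as independent, although both tissues came from the same rats. None of 34 member tests of hippocampus against cortex over 5 intervals passed, where 0.449% of probe tests did, and none had an unadjusted p under 0.05 in limma, which 5.97% of probe tests had. The difference for Serping1 at 24 hr was 1.29 on the log2 scale, larger in hippocampus, with an interval of its ratio from 0.824 to 7.25. Between intervals 0 of 21 member tests passed (0% of all probe tests), and 5 had an unadjusted p under 0.05, as did 4.08% of all probe tests, and 5 passed by fold change and unadjusted p (3.9%). For C3ar1 the effect of TBI in the cortex was smaller at 6 months than at 2 weeks, with a log2 difference of -2.67 (unadjusted p = 0.00735 in limma, adjusted p = 0.544). Without the arrays that stand apart the difference was -1.71 and passed (adjusted p = 0.033). At 2 weeks C3ar1 was well above background on only 1 of the 4 cortical sham arrays. Slides differ between intervals.

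Between the tissues of naive rats 1 of 7 members was called at 2 weeks, where 4.91% of all probes were. At 6 months 2 were called (16.4%) and at 1 year 3 (37.7%), the latter near the share of all probes. Cd55 was higher in hippocampus at every interval compared: 1.2, 0.95, 1.92 and 2.07 against -0.22, -0.69, -0.12 and 0.39 in cortex at 2 weeks, 1.23 to 1.74 against -0.11 to 0.67 at 6 months, and 1.2 to 1.67 against -1.08 to 0.16 at 1 year. The tissues did not overlap at any of them. The ratios were 3.25 (1.88 to 5.59, adjusted p = 0.00144), 2.29 (1.53 to 3.43, adjusted p = 0.000739) and 3.30 (2.27 to 4.80, adjusted p = 0.000706). At 2 weeks the call was lost with the 75th percentile or the authors' values (adjusted p = 0.146 for each), and it held without the arrays that stand apart (adjusted p = 0.0266). The other Cd55 probes were too dim in these arrays to be tested. Cfd was lower in hippocampus at 6 months, with 1.42 to 2.66 against 2.77 to 3.74 in cortex, a ratio of 0.476 (0.319 to 0.712, adjusted p = 0.0033, and 0.0326 without the array that stands apart), and the call was lost on leaving out cortex replicate 1 (adjusted p = 0.0611). At 1 year its ratio was 0.582 (0.393 to 0.863, adjusted p = 0.0359) with touching ranges, and this call was lost on leaving out cortex replicate 1 or 2 or hippocampus replicate 1, 3 or 4 (adjusted p 0.0546 to 0.089). Cr1l was 1.29-fold higher in hippocampus at 1 year (1.12 to 1.48, adjusted p = 0.0113), with 4.72 to 4.87 against 4.36 to 4.52. Cr1l was called at 1 year only. The tissues were on different slides. They came from the same rats, and these tests took the arrays as independent. A fit with the rat as a block gave a correlation between a rat's tissues of 0.029 at 2 weeks, -0.18 at 6 months and 0.26 at 1 year.

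The other complement genes were read from a list of 41, of which 36 were on the larger and 35 on the smaller design. Of the 22 tested in the hippocampus at 24 hr, 6 were called, all higher after TBI, where 13.5% of all tested probes were called. The list's median log2 difference was 0.72 against -0.01 over all probes. The largest were Fcnb (2.50), a ficolin that starts the lectin pathway, C1s (2.42), a protease of C1 that C1 inhibitor blocks, and C3 (2.15), the source of C3a. At 2 weeks 8 of 24 were called (1.84% of all probes), all higher, with a median of 0.72 against -0.11, led by C3 (2.32), C2 (1.48) and C4a (1.28), parts of the classical convertases. In the other 8 comparisons none was called. In the hippocampus an unadjusted p under 0.05 in limma was reached by 1 of 18 at 3 months (4.96% of all probes). It was reached by 1 of 23 at 6 months (2.87%) and 3 of 24 at 1 year (15.6%). Cortex had 10 of 25 at 24 hr (20.9%) and 14 of 24 at 2 weeks (4.04%). Later it had 4 of 23 at 3 months (4.15%) and 5 of 24 at 6 months (10.1%). At 1 year 2 of 24 passed there (1507 of 25221 probes). Without the arrays that stand apart, 15 of 24 were called in the cortex at 2 weeks (8.45% of all probes), all higher, with a median of 1.2 against 0.01, led by C3 (3.57), Itgb2 (2.61) and Fcnb (2.45).

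Markers of cells that carry complement receptors moved with these differences. Of 12 microglia and macrophage markers 11 were on the arrays, and 9 to 11 of them were well above background on each array. In the hippocampus at 24 hr their mean level was 3.55 to 3.68 in sham and 3.93 to 4.5 in TBI arrays, and 2 of 11 were called, both higher, where 13.5% of all probes were called. At 2 weeks their mean level was 4.07 to 4.32 in sham and 4.67 to 5.78 in TBI arrays, and 8 of 11 were called (1.84% of all probes), all higher. In the cortex at 2 weeks, without the arrays that stand apart, all 11 were called higher (8.45% of all probes were called). Blood monocyte markers rose at 24 hr in the hippocampus for 3 of 5 tested (mean level 0.96 to 1.68 in sham, 2.84 to 3.38 in TBI arrays), as did 3 of 4 neutrophil markers tested, Lcn2 (log2 difference 7.06), S100a9 (4.01) and S100a8 (3.5). Mmp8, Ngp, Camp, Elane and Cxcr2, more restricted neutrophil genes, were too dim there to be tested. Lcn2 is also made by reactive astrocytes. At 2 weeks in the hippocampus none of 3 neutrophil markers passed. The part of these cells in the member values was not tested.

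The genes whose pattern was most like each member's were found by Pearson correlation over the 96 arrays of the larger design, among 11391 genes, after the mean of each tissue and interval was taken away. They are a description, since the arrays share slides and conditions and the arrays that stand apart enter. For C3ar1 they were Ctsz, Tyrobp and Ptpn6 (0.93 each) and for C5ar1 they included Icam1 and Clic1 (0.90 each). For Serping1 they were Cp (0.91), Lgals3 and Anxa1 (0.90 each), and for Cfd Slc22a18 (0.83), Tspan8 (0.81) and Ppic (0.80). Without the arrays that stand apart (91 arrays), the leading genes were Myo1f for C3ar1 (0.87), Fgr for C5ar1 (0.89), Cp for Serping1 (0.89) and Tspan8 for Cfd (0.79). The highest correlation of Cr1l was 0.96 (with Ctsl) over all 96 arrays and 0.74 (with Ctsc) without them. The closest matches of Cd55 and C4bpb in the 91 arrays reached 0.59 each (Cct2 and Ankrd10). Among the members, C3ar1 and C5ar1 correlated at 0.79 over these 91 arrays, C3ar1 and Serping1 at 0.71 and C5ar1 and Serping1 at 0.65.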

How the data were processed

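RNA was labelled with 1 dye and hybridised to 113 rat Agilent arrays. The authors deposited 1 scanner file per array, made with Agilent Feature Extraction 11.5.1.1, whose values are spot intensity after background subtraction. They also deposited a matrix of linear intensity divided by 1 constant per array, of which log2 was taken as an alternative. Of the intensity, the processed signal was used: spots of 1 probe were averaged, log2 was taken and the median of each array over non-control probes was subtracted. Dim spots hold surrogate values set by Feature Extraction.

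Probes were named through RefSeq accessions, and each member was read from its brightest probe. A probe was tested if well above background in every array of 1 of the groups compared. Each tissue and interval was fitted with limma 3.58.1 in R 4.3.3 over all its arrays (naive, sham and TBI), with Benjamini-Hochberg adjustment over all tested probes. The number of arrays limits the precision, and each array is 1 tissue sample of 1 rat. The scripts were tested on simulated data. Members, gene lists and cell type markers were chosen with earlier results of these data known. All 7 members are named, besides up to 3 other complement genes called per comparison and the 3 genes most correlated with each member, a rule that markers named for their cell type do not follow. A cortical marker and a correlated gene are not reported here.

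Alternatives were scaling to the 75th percentile, quantile normalization, the authors' values, normexp background (offset 50, on the median spot signal, as the mean was not in the files used), no filter, only the groups compared, the replicate number as a block, a fold change of 1.4 with unadjusted p under 0.05, the second brightest probe, the rat as a block, and leaving out single arrays. Leaving out the 5 arrays that stand apart (75th percentile under 3.4 above the median) was chosen after seeing the data. Same-numbered sham and TBI arrays are different rats. Their deviations correlated over 0.1 in every pair only in the cortex at 1 year (0.11 to 0.22), where the block changed no call.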

Additional observations from a re-analysis of the deposited data

Results flagged for a closer look

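In 9 of 189 groups of 4 arrays, 1 array lay far from the other 3 by Dixon's test, which chance does in about 1 group in 20. Of these, 3 were on cortex sham 2 weeks replicate 3, the array that stands farthest apart: C5ar1 at -2.27 (others 0.97 to 1.59), Serping1 at -0.66 (others 3.88 to 4.25) and Cr1l at 0.75 (others 4.27 to 4.29). Cr1l had another 3, all in narrow groups. Those were cortex sham 1 year replicate 4 at 4.39 (others 4.32 to 4.33), hippocampus sham 3 months replicate 3 at 3.07 (others 3.59 to 3.65) and hippocampus sham 6 months replicate 1 at 4.59 (others 4.74 to 4.75). Serping1 in cortex naive 1 year replicate 2 was 4.30 (others 3.87 to 3.92). Cfd in cortex naive 3 months replicate 3 was 2.58 (others 2.08 to 2.15). C4bpb in hippocampus TBI 1 year replicate 4 was 1.22 (others 0.68 to 0.74).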

How the results depend on the processing

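Alternatives gave 943 values for 92 member results, namely each tested difference of TBI and sham and, elsewhere, each member called in some planned setting. Of these, 789 kept their direction and side of the threshold, 37 lost a call, 80 gained one and 37, of 16 results, changed sign. None of the values that changed sign was called in either setting. Members called in the hippocampus at 24 hr were 4, and 0 without the filter. At 2 weeks they were 2, and 0 without the filter or with only the groups compared. They were 1 with the second brightest probe, as that of C3ar1 was not tested, and 5 by the rule of fold change and unadjusted p. That rule gave 1 at 3 months and at 6 months there, and for cortex 3, 4, 1 and 1 from 24 hr to 6 months, as set beside the shares of all probes above. Cortex at 24 hr with normexp had 4 and without the filter 3, against 0. At 2 weeks it was 3 with the 75th percentile, 1 with the authors' values, 2 without the filter and 4 without the arrays that stand apart, against 0. Sham against naive had 1 call, 2 with the 75th percentile, quantile normalization, the authors' values or without the arrays that stand apart, 0 without the filter or with only the groups compared, and 7 by the fold rule. TBI against naive had 6, and 10 with the 75th percentile or only the groups compared and 16 by the fold rule. The interval interaction had 0, and 1 without the arrays that stand apart and 5 by the fold rule. Naive hippocampus against naive cortex had 6, and 2 without the filter and 3 with the second brightest probe, as that of Cd55 was not tested. With single arrays left out, calls ranged from 0 to 4 in the hippocampus at 24 hr and at 2 weeks, 0 to 2 in the cortex at 24 hr and at 2 weeks, 0 to 2 for sham against naive, 5 to 7 for TBI against naive and 5 to 7 for the naive tissues. With the replicate number as a block, 1 member was called in the hippocampus at 24 hr and 0 at 2 weeks; the samples share only a number there. Adjusted p with the block was 0.0411 for C3ar1, 0.0716 for C5ar1, 0.0504 for Serping1 and 0.0944 for Cr1l at 24 hr, and 0.0879 for C3ar1 and 0.0599 for Serping1 at 2 weeks. Calls over all probes in the hippocampus at 24 hr were 2255, and 504 with the block and 0 without the filter. At 2 weeks they were 463, and 18 with the block, 5 with only the groups compared and 4 without the filter. Cortex at 24 hr had 74, and 4949 with normexp, 9633 without the filter, 4 with only the groups compared, 0 with the block, and 1 with the 75th percentile, quantile normalization or the authors' values. Cortex at 2 weeks had 2, and 156 with the 75th percentile, 72 with quantile normalization, 38 with the authors' values, 50 with normexp, 4695 without the filter, 0 with only the groups compared, 1 with the block and 1993 without the arrays that stand apart. The median over all probes there, 0.95 on the log2 scale, was 0.19 with the 75th percentile and -0.39 with the authors' values. The cause of these changes was not tested. Slide as a block gave no value of its own because every group lay on 1 slide. Low signal over background kept C3ar1 in the hippocampus and Cd55 in the cortex from being tested at 3 months.

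The log2 differences of TBI and sham that changed sign follow, with the 3 scalings in this order: 75th percentile, quantile, authors' values. Cfd in the hippocampus at 3 months was -0.013, with 0.090, 0.030 and 0.10 under the scalings and -0.18 to 0.20 with single arrays left out. C5ar1 in the hippocampus at 1 year was -0.0034, with 0.042, 0.0037 and 0.057 under the scalings, 0.014 with normexp and -0.33 to 0.16 with single arrays left out. C4bpb in the cortex at 24 hr was 0.0021, with -0.14, -0.032 and -0.14 under the scalings and -0.13 to 0.12 with single arrays left out. Cd55 in the cortex was 0.41 at 24 hr and -0.52 with its second brightest probe. At 2 weeks it was 0.036, with -0.72, -0.60 and -1.30 under the scalings, -0.19 with normexp and -0.28 to 0.37 with single arrays left out. Cfd in the cortex at 2 weeks was 1.17, and -0.17 with the authors' values. C4bpb there was 0.13, with -0.63 under the 75th percentile, -1.21 with the authors' values, -0.26 without the arrays that stand apart and -0.26 to 0.38 with single arrays left out. Cr1l in the cortex at 1 year was -0.030, with 0.023, 0.020 and 0.022 under the scalings. Normexp turned C3ar1 in the cortex at 3 months from 0.076 to -0.012 and C5ar1 at 1 year from 0.064 to -0.015, the latter ranging from -0.066 to 0.17 with single arrays left out. C5ar1 in the cortex at 3 months was 0.40, and -0.063 without the array that stands apart, in a range of -0.063 to 0.69 over single arrays left out. Leaving out single arrays alone turned C4bpb in the hippocampus at 6 months (-0.017 to 0.11 around 0.043), Serping1 there at 1 year (-0.19 to 0.32 around 0.069), Cfd in the cortex at 24 hr (-0.24 to 0.087 around -0.13) and 6 months (-0.087 to 0.70 around 0.22), and C4bpb in the cortex at 1 year (-0.093 to 0.18 around 0.051).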
